A study of Mus musculus with 33 samples.

Results

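GABA-A receptors are pentameric chloride channels opened by GABA, and they carry most of the fast inhibition in the hippocampus. Alpha and beta subunits form the GABA binding sites and a gamma or delta subunit completes most receptors, so that subunit composition sets where a receptor sits and how it responds. Some receptors gather at synapses through gephyrin, whereas receptors with alpha5 or with delta lie mostly outside synapses and carry tonic inhibition. The transcripts described here are 7 subunit genes, a list of names drawn up with earlier results of these data known, of 16 of the family considered here: the alpha subunits Gabra2, Gabra4 and Gabra5, the beta subunits Gabrb1 and Gabrb2, the gamma subunit Gabrg1 and the delta subunit Gabrd. All 7 passed the filters on low values, among 16962 of 38355 genes tested in aged mice and 18420 of 40678 loci tested in young mice.

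RNA was sequenced from CA1, the output field of the hippocampus, in an aged and a young experiment. Mice had received injections into the body cavity of JQ1 or of vehicle, which held 10% DMSO. JQ1 is a small molecule that blocks the bromodomains of BET proteins. The aged experiment held 6 JQ1-treated and 6 vehicle-treated mice of the line APP/PS1-21 on a C57B/6 background and 4 vehicle-treated WT mice, aged 8 to 10 months, with a dose of 50 mg per kg for 10 days. Aged WT replicate 2 was not analysed here. The 4 aged WT mice have the APP line in their strain label but WT in their titles, which were followed. The young experiment held 8 JQ1-treated and 8 vehicle-treated C57B/6JRj WT mice of 3 months, with 13 days of injections at the same dose. The transgenes of APP mice, mutant human APP among them, are driven by the Thy1 promoter, which is mainly active in neurons. The methods give females for the behaviour of the aged mice and name purchased males for the C57 strain. All mice were killed after training in a water maze, and no aged WT group received JQ1.

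Between 14605459 and 25339482 reads per library were counted on genes in the aged experiment, and the members had between 271 counts (Gabrb2) and 5486 counts (Gabra5) in a library. FPKM values carry no depth. All 5 CA1 pyramidal markers were detected in every group, and their summed level ranged from 800 to 1273 CPM (counts per 1000000 counts on genes) in aged and from 214 to 328 FPKM in young libraries. The library labelled APP JQ1 replicate 4 went against its label. Its Thy1 level was 819.8 CPM, against 841 to 1070.3 CPM in aged WT mice and 1618 to 2342 CPM in the other 11 APP libraries. It had no read of Cst7, a gene of plaque-associated microglia, where a count of 0 allows up to 0.199 CPM, and the other APP libraries had 13.7 to 55.6 CPM. These genes were chosen after their values were seen, and the changes and correlations of the members that use this library are given with and without it.

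Gabrg1, Gabra2, Gabra4 and Gabrb1 lie in 1 cluster of 1398 kb on mouse chromosome 5 (mm10). Gabrg1 (ENSMUSG00000001260, minus strand) spans 70751047 to 70842617 and Gabra2 (ENSMUSG00000000560, minus strand) spans 70957597 to 71095849. Gabra4 (ENSMUSG00000029211, minus strand, 71569749 to 71658308) and Gabrb1 (ENSMUSG00000029212, plus strand, 71658113 to 72149037) run away from each other and share 196 bases at their 5′ ends. The reads of these bases cannot be told apart without strand, and in the FPKM files both genes carry the same locus span, so that their FPKM are uncertain to the extent that reads were split. Gabrb1 also overlaps Gm38562 on the other strand, and Gabra5 (ENSMUSG00000055078, chromosome 7, minus strand, 57407672 to 57510059) overlaps other genes, Gm9962 among them. Gabrb2 (ENSMUSG00000007653) lies on chromosome 11 and Gabrd (ENSMUSG00000029054) on chromosome 4.

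RefSeq (GRCm38.p6) gave windows of 250 bases before a transcription start for 6 of the 7 members, 9 windows in all. Those of the 3 cluster genes whose JQ1 response differed between APP and young WT mice are shown, 5′ to 3′ on the gene's strand, with each CG dinucleotide in capitals, because the genes are neighbours and their promoters differ. Gabrg1 is at chr5:70842618-70842867 (minus strand), Gabra2 at chr5:71095850-71096099 (minus strand) and the downstream one of the 2 starts of Gabrb1 at chr5:71699682-71699931 (plus strand).
Gabrg1: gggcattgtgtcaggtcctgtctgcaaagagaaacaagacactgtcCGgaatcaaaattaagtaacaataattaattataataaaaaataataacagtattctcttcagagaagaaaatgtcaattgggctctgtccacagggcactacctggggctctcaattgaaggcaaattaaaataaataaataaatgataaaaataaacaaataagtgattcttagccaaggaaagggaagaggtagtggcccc
Gabra2: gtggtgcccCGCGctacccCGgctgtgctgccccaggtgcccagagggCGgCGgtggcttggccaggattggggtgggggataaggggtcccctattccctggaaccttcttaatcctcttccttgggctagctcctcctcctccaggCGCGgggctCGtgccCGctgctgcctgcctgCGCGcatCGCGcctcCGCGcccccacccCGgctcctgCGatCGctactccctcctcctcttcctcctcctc
Gabrb1: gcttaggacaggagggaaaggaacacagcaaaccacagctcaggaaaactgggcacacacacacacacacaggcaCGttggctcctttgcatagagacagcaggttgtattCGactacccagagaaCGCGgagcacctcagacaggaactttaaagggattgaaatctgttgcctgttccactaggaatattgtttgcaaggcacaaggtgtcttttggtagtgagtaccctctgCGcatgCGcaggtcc
The Gabrg1 window held 1 CG and 35.6% GC, the Gabra2 window 18 CG and 70.0% GC, and the Gabrb1 window 6 CG and 50.8% GC, against medians of 6 CG and 52.4% GC over 32851 windows of 27025 genes. The upstream start of Gabrb1 had 18 CG, and its window was not printed because it overlaps an exon of Gabra4. TATAAA, searched on both strands, stood in 1 member window (Gabrb2) and in 12.4% of all windows. Neither TGACG (17.8% of all windows) nor CACGTG (6.02%) stood in any of the 9 member windows.

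The comparison of JQ1 with vehicle in APP mice asks what the drug does to these transcripts in a mouse with amyloid pathology. Gabrb1 rose from a mean of 17.4 to 31.3 CPM, and the other 6 members did not pass the test (edgeR's quasi-likelihood test, Benjamini-Hochberg adjusted p under 0.05). This 1 of 7 members stood against 1.08% of the 16962 genes tested. The median log2 change of the members was 0.62, against -0.00105 over all genes tested, and 6 of the 7 were above 0. In bulk CA1, fewer cells that express a gene and less RNA per cell cannot be told apart.

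Gabrb1 encodes beta1, the least common of the beta subunits in forebrain, made in neurons and in glia. In JQ1-treated APP mice its level was 29.1 CPM at the lowest, 30.7 at the median and 34.4 at the highest. In vehicle-treated APP mice it was 13.3, 16.7 and 26.6 CPM. The 4 aged WT mice had 20.5, 18.3, 14.9 and 15.3 CPM. Every JQ1 library was thus above every other aged library, and such a rise over vehicle without overlap was seen for 0.878% of genes tested. The means were 31.3 ± 1.98 CPM (SD, n = 6) and 17.4 ± 4.81 CPM (SD, n = 6), a log2 change of 0.85 (SE 0.14, edgeR adjusted p = 0.00631). A two-sided exact permutation test gave p = 0.00216, the smallest that 6 against 6 allows. Without the library labelled APP JQ1 replicate 4 the log2 change was 0.86 (edgeR adjusted p = 0.0136, where 0.431% of genes passed), and the groups still did not overlap. Gabrb1 passed in each of the 16 fits that left out 1 library, with log2 changes from 0.79 to 1.01. It did not pass after correction for GC content, where the log2 change was 0.63 (SE 0.13, edgeR adjusted p = 0.0735), and 0.124% of all genes passed.

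**Figure D1:**
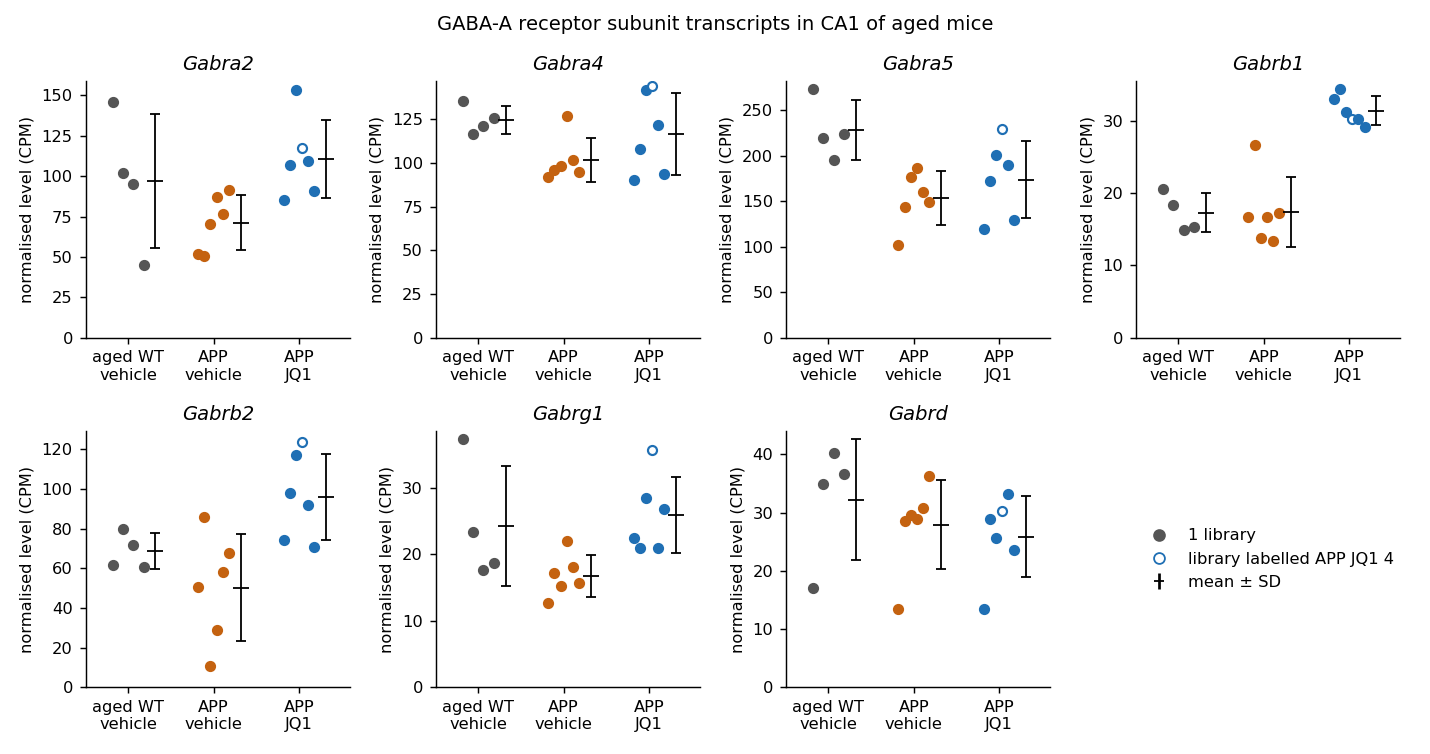
Level of each subunit transcript (CPM, linear axis from 0) in aged WT mice with vehicle (n = 4), APP mice with vehicle (n = 6) and APP mice with JQ1 (n = 6). Each point is 1 library, the open point is the library labelled APP JQ1 replicate 4, and bars are mean ± SD; the 6 JQ1 libraries are above all other libraries for Gabrb1 only.

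Gabrb2 encodes beta2, a subunit of the most common receptor of the brain. Its CPM in JQ1-treated APP mice was 70.8 at the lowest, 94.9 at the median and 124 at the highest, and in vehicle-treated APP mice it was 10.6, 54.2 and 86.0. The low end of the vehicle group was set by replicate 3 at 10.6 CPM and replicate 4 at 29.1 CPM, and the groups overlapped. Aged WT mice had 61.9, 80.0, 71.5 and 60.8 CPM. The log2 change was 0.93 (SE 0.35, edgeR adjusted p = 0.191), the widest error of the members, and the exact permutation p was 0.00866. Without vehicle replicate 3 the log2 change was 0.72, and without the library labelled APP JQ1 replicate 4 it was 0.85 (edgeR adjusted p = 0.346).

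Of the alpha subunits, none passed the test. Gabra2 encodes alpha2, which is found at synapses onto pyramidal cells and on their axon initial segment. Its CPM was 85.2 at the lowest, 108 at the median and 153 at the highest with JQ1, and 50.5, 73.7 and 91.2 with vehicle, so the groups overlapped in a narrow range. The 4 aged WT mice spread more widely than either APP group, at 146, 102, 94.9 and 45.2 CPM. The log2 change with JQ1 was 0.63 (SE 0.23, edgeR adjusted p = 0.177), with an exact permutation p of 0.0108, and it was 0.62 without the library labelled APP JQ1 replicate 4.

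Gabra4, whose product alpha4 pairs with delta outside synapses, had 90.2, 115 and 144 CPM (lowest, median, highest) with JQ1 and 92.1, 97.3 and 127 CPM with vehicle. Gabra5 encodes alpha5, which is enriched in hippocampal pyramidal cells. It had 119.6, 181 and 229 CPM with JQ1 and 102, 154 and 187 CPM with vehicle. In both genes the groups overlapped over most of their range. The log2 changes were 0.20 (95% interval -0.03 to 0.42) for Gabra4 and 0.18 (-0.13 to 0.49) for Gabra5. These were 0.13 and 0.0914 when the library labelled APP JQ1 replicate 4 was left out.

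Gabrg1 encodes gamma1, a rarer gamma subunit that glia also make. Its CPM was 20.9, 24.6 and 35.7 (lowest, median, highest) with JQ1 and 12.6, 16.4 and 22.0 with vehicle, and only vehicle replicate 4 reached into the JQ1 range. The 4 aged WT mice had 37.3, 23.3, 17.6 and 18.7 CPM. The log2 change was 0.62 (SE 0.18, edgeR adjusted p = 0.0987), with an exact permutation p of 0.00649. Without the library labelled APP JQ1 replicate 4, which had the highest value, it was 0.52 (edgeR adjusted p = 0.216). Without aged WT replicate 1, which shares in the estimate of the spread, Gabrg1 passed (log2 change 0.63, edgeR adjusted p = 0.0353), and it passed with DESeq2 (adjusted p = 0.0260), where 5.24% of genes passed.

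Gabrd, whose product delta is typical of dentate granule cells, had 13.4, 27.3 and 33.1 CPM with JQ1 and 13.5, 29.3 and 36.4 CPM with vehicle (lowest, median, highest). It was the 1 member with a change below 0, and its groups covered the same range. The log2 change was -0.11 (95% interval -0.60 to 0.37), and -0.16 without the library labelled APP JQ1 replicate 4.

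**Figure D2:**
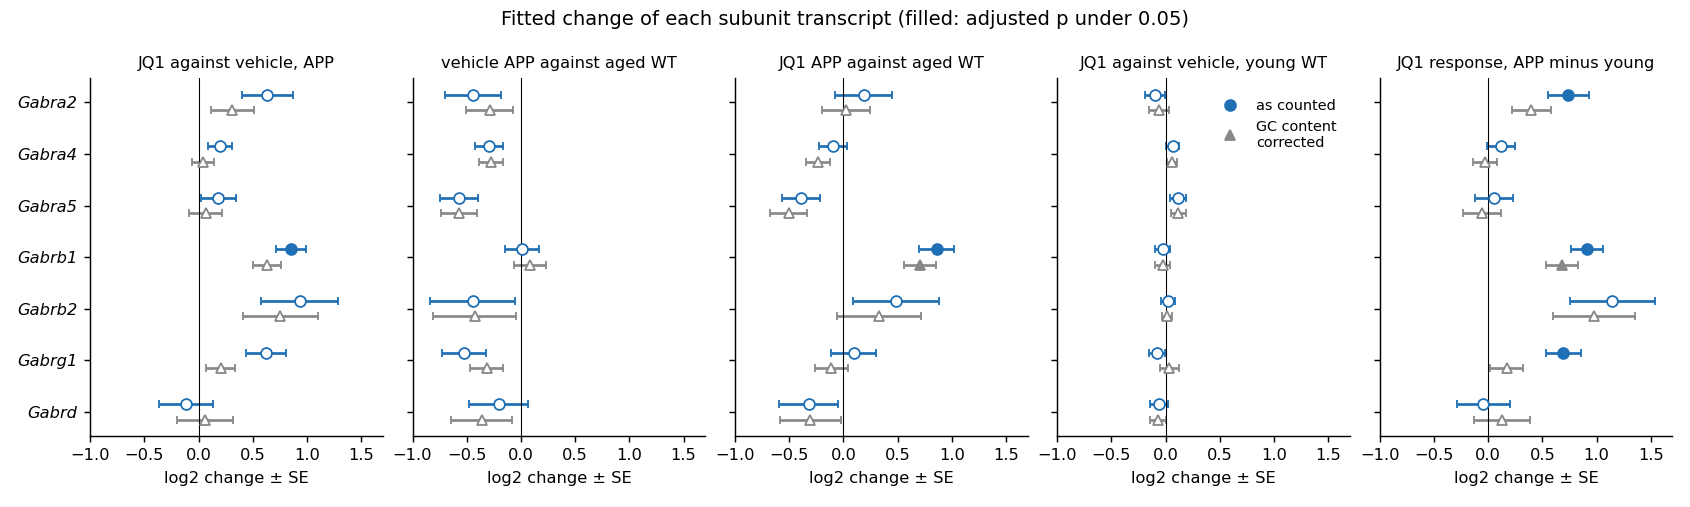
Log2 change ± SE of each subunit transcript in 5 panels: JQ1 against vehicle in APP mice, vehicle APP against aged WT mice, JQ1-treated APP against aged WT mice, the drug against vehicle in the young experiment, and the difference between the JQ1 responses of APP and young mice. Circles are values as counted, triangles are corrected for GC content, and filled symbols have an adjusted p under 0.05; Gabrb1 is filled in 3 panels, Gabra2 and Gabrg1 are filled as counted in the last panel alone, and the young values lie close to 0.

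The comparison of vehicle-treated APP with aged WT mice asks what the transgenes change. None of the 7 members passed the test, against 2.57% of the 16962 genes tested, and 3 of 7 had an unadjusted p under 0.05, all 3 lower in APP mice (14.4% of genes in either direction). Gabra5 was closest to a call. Its 4 aged WT values of 273, 219, 195 and 224 CPM were all above the 6 values of vehicle-treated APP mice. A lower level in APP mice without overlap was seen for 2.05% of genes. The log2 change was -0.58 (SE 0.18, edgeR adjusted p = 0.106), and the exact permutation p was 0.00952, the smallest that 6 against 4 allows. Gabra5 passed in a fit of these 2 groups alone (log2 change -0.58, edgeR adjusted p = 0.0388) and with DESeq2 (adjusted p = 0.0339), where 4.3% of genes passed.

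The other alpha subunits overlapped between the genotypes. Gabra4 was 136, 116, 122 and 126 CPM in aged WT mice, and 5 of the 6 vehicle-treated APP mice were below these (log2 change -0.30, edgeR adjusted p = 0.285). Gabra2 differed by -0.44 (95% interval -0.95 to 0.06), Gabrg1 by -0.53 (-0.93 to -0.13) and Gabrb2 by -0.45 (-1.21 to 0.31) on the log2 scale. Gabrd differed by -0.21 (-0.74 to 0.33) and Gabrb1 by 0.01 (-0.30 to 0.32). Single libraries moved these values. Without aged WT replicate 1, whose GC slope was the lowest of its group, Gabra2 was at -0.19, Gabrg1 at -0.25 and Gabrd at -0.43. Without aged WT replicate 5 Gabra2 was at -0.68, without vehicle-treated APP replicate 3 or 2 Gabrb2 was at -0.23 or -0.68, and without vehicle-treated APP replicate 1 Gabrd was at -0.06. The median of the members was -0.44, against 0.00927 over all genes tested.

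JQ1-treated APP mice were also set against aged WT mice. The 6 JQ1 libraries are those of the first comparison and the 4 aged WT libraries those of the second, so that the calls are not independent of each other. Gabrb1 was higher in JQ1-treated APP mice (1.82-fold, log2 change 0.86, SE 0.16, edgeR adjusted p = 0.0137), against 2.06% of genes called. All JQ1 values were above the aged WT values (2.55% of genes), with an exact permutation p of 0.00952, the smallest that 6 against 4 allows. Without the library labelled APP JQ1 replicate 4 the log2 change was 0.86 (edgeR adjusted p = 0.00501, where 3.84% of genes passed). The call was lost without aged WT replicate 3, 4 or 5 (log2 changes 0.89, 0.79 and 0.81, edgeR adjusted p = 0.0610, 0.0598 and 0.0718). The other 6 members did not pass, with log2 changes from -0.39 for Gabra5 to 0.48 for Gabrb2, or from -0.50 to 0.39 for the same genes without the library labelled APP JQ1 replicate 4.

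In young WT mice the FPKM, which are per transcript length, give the order of the subunits. In vehicle-treated mice Gabra5 stood at 59.2 ± 3.52 FPKM (SD, n = 8) and Gabrb2 at 55.2 ± 5.56, and these 2 overlapped. Gabra4 at 26.1 ± 2.15 and Gabra2 at 25.4 ± 3.06 FPKM overlapped, and Gabra2 overlapped Gabrb1 at 19.8 ± 1.89 FPKM. Gabrd at 12.3 ± 1.58 FPKM lay below Gabrb1 in every library, and Gabrg1 at 8.73 ± 0.936 FPKM lay below Gabrd. Of the 9 other subunits considered, Gabra3 at 39.6 ± 4.62 FPKM lay between Gabrb2 and Gabra4 without overlap, Gabrg3 at 5.32 FPKM was below all members, and the other 7 were at 0.593 FPKM or less. Counts per kilobase of summed exons gave another order in aged WT mice. Gabra5 stood at 76.6 ± 11.01 CPM per kilobase (SD, n = 4), Gabra4 at 20.5 ± 1.33, Gabra2 at 12.7 ± 5.41, Gabrd at 11.2 ± 3.62, Gabrb2 at 10.8 ± 1.42, Gabrg1 at 3.08 ± 1.15 and Gabrb1 at 1.25 ± 0.19. Gabrb1 was thus lowest on that scale and above Gabrd and Gabrg1 in FPKM, and Gabrb2 was level with Gabra5 in FPKM only.

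**Figure D3:**
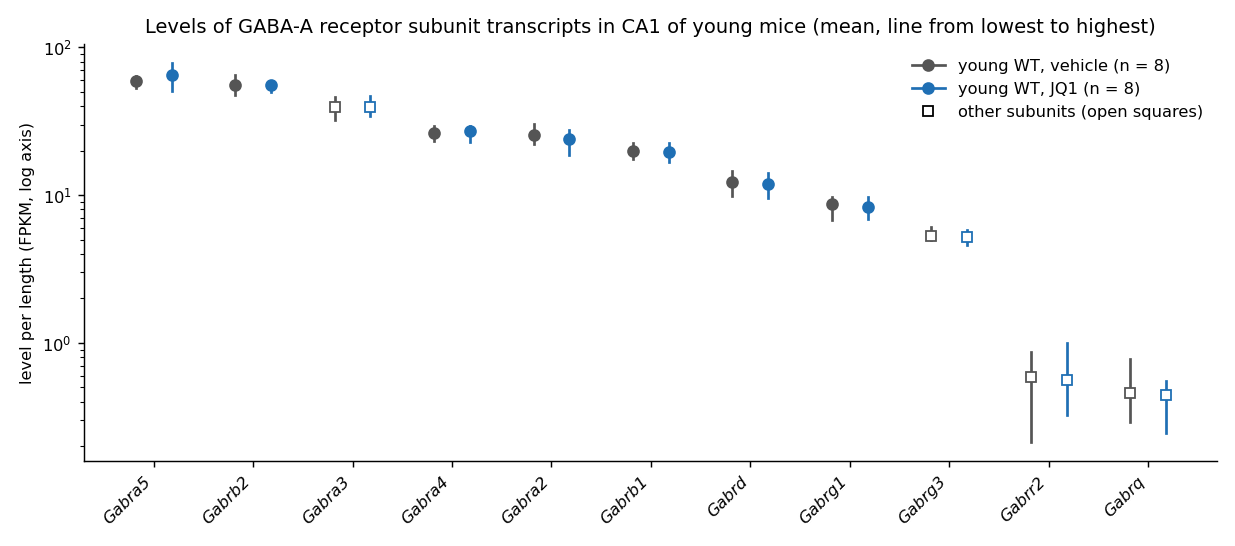
Level per transcript length (FPKM, log axis) of subunit transcripts in CA1 of young WT mice with vehicle (n = 8) and JQ1 (n = 8). Points are means and lines run from the lowest to the highest library, filled circles are the 7 members and open squares 4 other subunits; the 2 groups overlap for every member, from Gabra5 at 59.2 to Gabrg1 at 8.73 FPKM with vehicle.

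The young experiment asks what the drug does in younger mice without the transgenes. None of the members passed (limma on log2(FPKM + 0.1)), where 0.00543% of the 18420 loci did, and none had an unadjusted p under 0.05 (4.65% of loci). Gabrb1 ranged from 16.8 to 22.4 FPKM with JQ1 (median 19.7) and from 17.6 to 22.5 FPKM with vehicle (median 19.9). Its log2 change was -0.03 (95% interval -0.16 to 0.10), with an exact permutation p of 0.684. Gabrb2 had 49.8 to 59.3 FPKM with JQ1 (median 58.0) and 47.7 to 65.1 FPKM with vehicle (median 53.6).

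For the alpha subunits the groups overlapped just as widely. Gabra5 had the largest change of the members at 0.11 (95% interval -0.03 to 0.26), with 50.3 to 78.3 FPKM with JQ1 and 53.3 to 63.7 FPKM with vehicle. Gabra2 was 18.5 to 27.4 FPKM with JQ1 and 22.2 to 30.5 FPKM with vehicle (log2 change -0.10, 95% interval -0.27 to 0.08). Gabra4 was 22.9 to 29.2 and 23.1 to 29.4 FPKM. Gabrg1 was 6.93 to 9.65 FPKM with JQ1 and 6.79 to 9.74 FPKM with vehicle (log2 change -0.08, 95% interval -0.23 to 0.07), and Gabrd was 9.59 to 14.1 and 9.81 to 14.7 FPKM.

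The difference between the JQ1 responses of APP and young WT mice was tested as an interaction (limma), over 12535 genes tested in both experiments, of which 2.42% passed. Of the members, 3 of 7 passed, and all 3 had a higher response in APP mice. The test takes 1 spread per gene over both experiments. For Gabra2 and Gabrg1 the SE of JQ1 against vehicle was 0.23 and 0.18 in APP mice, where neither passed. In young mice it was 0.09 and 0.08, so their calls here rest on the joint spread. Gabrb1 differed by 0.91 on the log2 scale (SE 0.15, limma adjusted p = 0.0007), Gabrg1 by 0.69 (SE 0.16, adjusted p = 0.0201) and Gabra2 by 0.74 (SE 0.19, adjusted p = 0.0317). These are 3 of the 4 genes of the chromosome 5 cluster, and the fourth, Gabra4, differed by 0.12 (limma adjusted p = 0.680). Gabrb2 differed by 1.15 (SE 0.39, limma adjusted p = 0.118) and passed only without APP vehicle replicate 2 (1.36, adjusted p = 0.0427). Gabra5 differed by 0.06 and Gabrd by -0.05.

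Without the library labelled APP JQ1 replicate 4, Gabrb1 at 0.92 (limma adjusted p = 0.00129) and Gabrg1 at 0.60 (adjusted p = 0.0413) passed, where 1.51% of genes did, and Gabra2 at 0.72 (adjusted p = 0.0593) did not. Gabrb2 was then at 1.07, Gabra4 at 0.05, Gabra5 at -0.03 and Gabrd at -0.10. Gabra2 passed in 21 of 28 fits that left out 1 library. It was also lost without APP JQ1 replicate 3 (limma adjusted p = 0.0630), APP vehicle replicate 1 (0.0521) or 3 (0.0551), young JQ1 replicate 8 (0.0548) and young vehicle replicate 2 (0.0524) or 3 (0.0570). Genotype, age, strain label, days of injection and the unit of the values all differ between the experiments, as does sex as far as the methods give it. These cannot be told apart.

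GC content moved with these results. In exons, Gabrg1 has 35.1% GC, Gabra2 38.6%, Gabrb1 41.3%, Gabrb2 43.3%, Gabra4 44.3%, Gabra5 46.1% and Gabrd 56.3%, against a median of 50.2% over tested genes. The slope of a library's log2 level on GC content, per 10 percentage points, ranged from -0.26 to 0.01 in JQ1-treated APP mice and from 0.08 to 0.24 in vehicle-treated APP mice, without overlap. Aged WT libraries ranged from -0.26 (replicate 1) to 0.09, and young libraries from -0.17 to 0.11. In the tenth of genes with the lowest GC content (29.6 to 42.4%, 1677 genes) the median log2 change with JQ1 in APP mice was 0.23. Gabrb1 changed more than 94.8% of these genes, Gabra2 more than 91.3% and Gabrg1 more than 91.1%. When the library labelled APP JQ1 replicate 4 was left out the median was 0.20 and these shares were 94.9, 91.0 and 87.5%.

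With the correction for GC content the changes of the members of low GC content were smaller. The log2 changes with JQ1 in APP mice were then 0.75 (edgeR adjusted p = 0.645) for Gabrb2, 0.31 (adjusted p = 0.760) for Gabra2 and 0.20 (adjusted p = 0.767) for Gabrg1. In the difference between APP and young mice Gabrb1 still passed at 0.68 (limma adjusted p = 0.0278), where 0.271% of genes did. Gabrg1 at 0.17 (limma adjusted p = 0.806) and Gabra2 at 0.40 (adjusted p = 0.493) did not. Without the library labelled APP JQ1 replicate 4 as well, Gabrb1 was at 0.71 (limma adjusted p = 0.0363, where 0.176% of genes passed). Over the 16 aged libraries, deviations from the group mean correlated with the GC slope at a Pearson r of -0.84 for Gabrg1, -0.61 for Gabra2 and Gabra4, -0.53 for Gabra5, -0.38 for Gabrb1, -0.34 for Gabrb2 and 0.19 for Gabrd. These were -0.81, -0.63 and -0.53, -0.45, -0.44, -0.31 and 0.27 when the library labelled APP JQ1 replicate 4 was left out. The part of GC content in the results as counted was not tested beyond this correction.

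**Figure D4:**
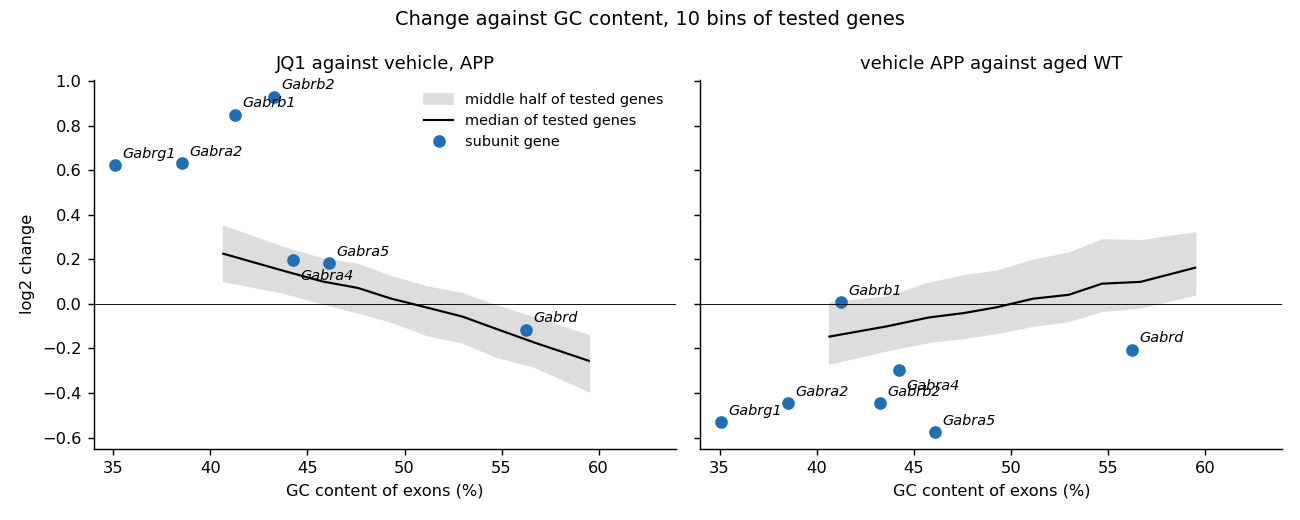
Log2 change against GC content of exons (%) for JQ1 against vehicle in APP mice and for vehicle APP against aged WT mice. The line is the median and the band the range between the quartiles of tested genes in 10 bins of GC content, and points are the 7 subunit genes; with JQ1 the median falls from 0.23 in the lowest bin, and Gabrb1, Gabrb2, Gabra2 and Gabrg1 lie above the band.

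Of the 9 other subunit genes considered, 5 were tested in aged mice. With JQ1 in APP mice none of the 5 passed (edgeR), 4 were above 0, and their median log2 change was 0.26, with Gabrq at 0.70, Gabre at 0.50 and Gabrr2 at -0.39. None passed without the library labelled APP JQ1 replicate 4. In vehicle-treated APP against aged WT mice none passed and 4 of the 5 were below 0, with Gabrg3 closest to a call at -0.39 (edgeR adjusted p = 0.140). Gabrr2, at 0.79 (adjusted p = 0.358), was the exception. None of the 5 passed between JQ1-treated APP and aged WT mice, and none of 3 in young mice or in the difference between the experiments.

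Of 20 genes that anchor or transport the receptors, none passed with JQ1 in APP mice, with a median of -0.01. The largest changes were Plcl2 at 0.37, a protein that assists receptor traffic, Nlgn2 at -0.26, the adhesion protein of inhibitory synapses, and Shisa7 at -0.25, an auxiliary subunit. Slitrk3, an inhibitory synapse adhesion protein, was the 1 gene of these lists that fell in vehicle-treated APP against aged WT mice. This was 1 call among the 20 genes of its list, with none on the lists of the next paragraph, against 2.57% of the 16962 genes tested. Slitrk3 ranged from 101 to 109 CPM in aged WT mice and from 67.9 to 96.4 CPM in vehicle-treated APP mice (log2 change -0.43, edgeR adjusted p = 0.0413), and with JQ1 it was 69.2 to 107 CPM. A lower level in vehicle-treated APP mice without overlap was seen for 2.05% of genes.

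None of 8 genes for GABA synthesis, transport and breakdown passed with JQ1 in APP mice. Slc6a13, a GABA transporter, was at 0.27, Slc32a1, which loads GABA into vesicles, at -0.26, and Aldh5a1, which breaks GABA down, at 0.19. Of the 3 chloride transport genes none passed, with Clcn2 at -0.28, Slc12a2 at 0.24 and Slc12a5 at -0.17. Of the 4 GABA-B receptor genes tested, Kctd16, an auxiliary subunit, rose with JQ1 in APP mice. It was 6.09 to 11.2 CPM with JQ1 and 2.35 to 5.89 CPM with vehicle, without overlap (log2 change 0.97, SE 0.22, edgeR adjusted p = 0.0382). Over all genes tested 1.08% passed, and 0.878% were higher with JQ1 without overlap. Kctd16 was the only call among the genes of these 4 lists in this comparison. The call was lost without the library labelled APP JQ1 replicate 4 (1.03, edgeR adjusted p = 0.0572) and with the GC correction (0.93, adjusted p = 0.135). Between JQ1-treated APP and aged WT mice none of the genes of these 4 lists passed, with Kctd16 closest (0.95, edgeR adjusted p = 0.0562). Kctd16 passed there without the library labelled APP JQ1 replicate 4 (edgeR adjusted p = 0.0354), where 3.84% of genes did. Of these lists 18, 8, 2 and 3 genes were tested in young mice and in the difference between the experiments, Kctd16 not among them, and none of those passed.

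The members did not form 1 block of covariation. Over the 16 aged libraries, Pearson's r of deviations from group means of log2 CPM ran from -0.25 to 0.85 over 21 pairs of members, with a median of 0.11. Depth and GC slope differ between these libraries and are common to all genes of a library, so the values describe these libraries only. Gabra4 and Gabra5 gave 0.85, Gabra5 and Gabrg1 0.62, Gabra2 and Gabrg1 0.60, and Gabrb1 and Gabrb2 0.48. The range was -0.24 to 0.82 (median 0.0810), and these pairs gave 0.82, 0.53, 0.63 and 0.50, without the library labelled APP JQ1 replicate 4. Over the 16 young libraries the range was -0.41 to 0.88 (median 0.25), with Gabra2 and Gabrb1 at 0.88 and Gabra4 and Gabrb2 at 0.83. Gabra4 and Gabra5 gave 0.55 there, and Gabra2 and Gabrb1 gave -0.01 in the aged libraries.

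The genes most alike to each member over the 16 aged libraries, by the same r, were Myo10 (0.91), Cbx5 (0.87) and Map4k4 (0.87) for Gabrb1. Those of Gabrb2 were Zkscan16 (0.96), Aff2 (0.94) and Zfp445 (0.94). For Gabra2 they were Gm3696 (0.86), Nsun3 (0.85) and Slc30a9 (0.84). Gabra4 was closest to Iyd (0.96), Nol4 (0.94) and Ppp3r1 (0.93), and Gabra5 to Tob1 (0.94), Nol4 (0.94) and Lrrn3 (0.92). Gabrg1 was closest to Triqk (0.92), Selenop (0.91) and Nkain4 (0.91), and Gabrd to Ngef (0.96), Ltk (0.95) and Kcnj4 (0.92). These 21 values ran from 0.87 to 0.97 without the library labelled APP JQ1 replicate 4. Iyd is also on the list of CA2 and CA3 markers. The other genes of that list gave -0.31 (Grik4) to 0.52 (Amigo2) with Gabra4, or -0.29 to 0.51 without that library.

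Markers of other cell types moved with some members. Gabrd correlated with the dentate granule markers Dsp (r = 0.89), Plk5 (0.81), Prox1 (0.66) and Tdo2 (0.40) but not with C1ql2 (-0.01) over the 16 aged libraries. Leaving out the library labelled APP JQ1 replicate 4 gave 0.90, 0.88, 0.69, 0.36 and 0.07. Over the 16 young libraries they were 0.40, 0.13, 0.23, 0.29 and 0.43. Of the 5 CA1 pyramidal markers, Mpped1 gave 0.69 with Gabrd, Pou3f1 0.53, Wfs1 0.49, Fibcd1 0.31 and Man1a -0.19 over the 16 aged libraries. On the other marker lists the values for Gabrd ran from -0.80 (Grik4, CA2 and CA3) to 0.61 (Lhx6, interneuron). Without the library labelled APP JQ1 replicate 4 the CA1 markers gave 0.68, 0.51, 0.47, 0.30 and -0.26, and these ends were -0.80 and 0.60. Dsp was 4.78, 34.8, 33.3 and 34.7 CPM in aged WT mice, while Gabrd was 17.0, 35.0, 40.3 and 36.6 CPM in the same order. In vehicle-treated APP mice Dsp ranged from 1.90 to 57.0 CPM and in JQ1-treated APP mice from 3.47 to 43.8 CPM, with replicate 1 the lowest of each group for both genes. The summed level of all 5 dentate markers overlapped between the groups, at 38.7 to 154 CPM in aged WT, 58.7 to 195 CPM in vehicle-treated and 79.9 to 167 CPM in JQ1-treated APP mice, and none was at 0 throughout a group.

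**Figure D5:**
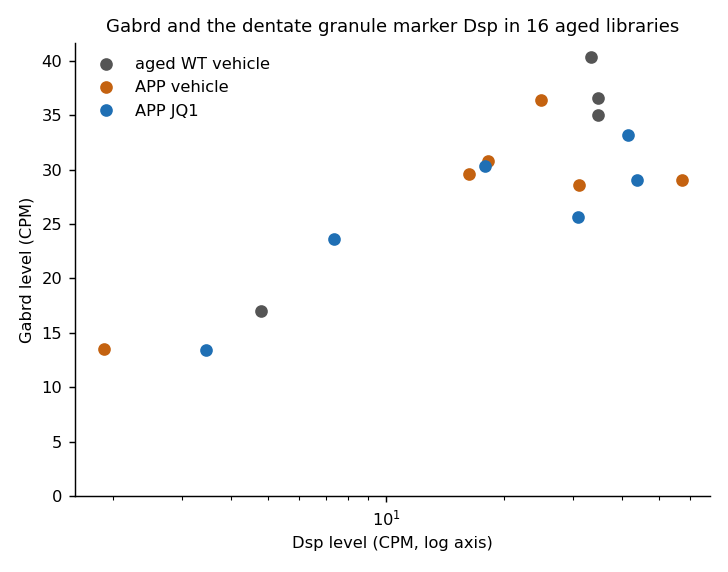
Level of Gabrd (CPM) against that of the dentate granule marker Dsp (CPM, log axis) in the 16 aged libraries. Points are coloured by group; the 3 libraries numbered 1 have the lowest Gabrd values, 13.4 to 17.0 CPM, and Dsp values of 1.90 to 4.78 CPM.

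Of the 5 astrocyte markers, Gja1 correlated with Gabrg1 at r = 0.70 over the 16 aged libraries, while Aldh1l1 gave 0.12, Slc1a3 -0.04, Aqp4 -0.26 and Gfap -0.53. With Gabrb1 they gave 0.44, 0.19, 0.40, 0.25 and 0.07 in the same order. Leaving out the library labelled APP JQ1 replicate 4 gave 0.74, 0.11, 0.23, -0.03 and -0.34 for Gabrg1 and 0.45, 0.20, 0.43, 0.26 and 0.03 for Gabrb1. Over the tested markers of all lists, r ran from -0.68 (C1ql2) to 0.74 (Pvalb) for Gabrg1. It ran from -0.68 (Sst) to 0.44 (Gja1) for Gabrb1, -0.82 (Mag) to 0.96 (Iyd) for Gabra4 and -0.80 (Mag) to 0.82 (Iyd) for Gabra5. Without that library these ends were -0.65 (Sst) and 0.74 (Gja1), -0.68 and 0.45, -0.81 and 0.95, and -0.78 and 0.78. The summed level of 5 astrocyte markers was 1214 to 1302 CPM in aged WT mice, 2258 to 6326 CPM in vehicle-treated and 1462 to 5713 CPM in JQ1-treated APP mice, and that of 5 microglia markers was 196 to 220, 406 to 668 and 203 to 644 CPM. The library labelled APP JQ1 replicate 4 had the lowest astrocyte sum of the JQ1 group. Its Gfap was 322 CPM and its Tyrobp, of the microglia list, 18.6 CPM. The other 5 JQ1 libraries had 1610 to 4076 CPM of Gfap and 74.9 to 166 CPM of Tyrobp. No astrocyte or microglia marker was at 0 throughout a group or passed the test with JQ1 in APP mice. The same holds for the test on the lists of dentate granule, CA2 and CA3, interneuron, oligodendrocyte, oligodendrocyte precursor, choroid plexus and thalamus markers. The 5 CA1 pyramidal markers, not part of this statement, summed to 800 to 1130 CPM with JQ1 and 977 to 1182 CPM with vehicle in APP mice. Their test with JQ1 in APP mice is not reported here, and the paper lists Wfs1 among the genes lowered there. In the difference between APP and young mice 1 marker passed, Sst of the interneuron list (-0.46, limma adjusted p = 0.0322), and it did not pass without the library labelled APP JQ1 replicate 4 (adjusted p = 0.0579) or with the GC correction (adjusted p = 0.318). The CA1 pyramidal markers were there at -0.54 (Wfs1, limma adjusted p = 0.107), -0.46 (Pou3f1), -0.20 (Mpped1), -0.19 (Fibcd1) and 0.22 (Man1a). Sst was 156 to 174 CPM with JQ1 and 165 to 229 CPM with vehicle in APP mice. It was also lower in JQ1-treated APP than in aged WT mice (-0.48, edgeR adjusted p = 0.0291), where 2.06% of genes passed. Aged WT replicate 1, at 170 CPM, lay within the JQ1 range. Gfap, Csf1r, Cx3cr1 and Tyrobp were higher than in aged WT mice in both APP groups (edgeR), and Aqp4 and Slc1a3 in JQ1-treated APP mice. Over all genes tested 2.57% passed with vehicle and 2.06% with JQ1, and the JQ1 calls include the library labelled APP JQ1 replicate 4. One aged WT library, replicate 4, had 3065 CPM of Ttr, a choroid plexus gene, and the summed choroid plexus level was 35.1 CPM in the lowest of that group. The part of any of these cells in the member results was not tested.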

How the data were processed

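The authors aligned HiSeq2000 reads to mm10 with STAR, allowing 2 mismatches, and deposited htseq counts per gene for each aged mouse and Cufflinks FPKM per locus for each young mouse. The submitters' notes also name TopHat, Cuffdiff and CASAVA 1.8.2, and the annotation release, strandedness and htseq mode are not given in the sources used here. The deposited counts were tested with edgeR 4.0.16 (quasi-likelihood, TMM factors 0.963 to 1.036, low counts filtered) over the 3 aged groups in 1 fit, with no covariate. The deposited FPKM, whose depth is unknown, were tested with limma 3.58.1 on log2(FPKM + 0.1), over loci that reached an FPKM of 0.5 in 8 or more of 16 libraries, a scale that understates changes of low genes. Calls had a Benjamini-Hochberg adjusted p under 0.05 over all genes tested. The difference between experiments was a limma interaction on log2 CPM and log2 FPKM joined by symbol, with 1 spread per gene for both. Alternatives were DESeq2 1.42.0, other scalings, filters and pseudocounts, a fit of 2 groups, the replicate number as a block, splines of 5 degrees of freedom on GC content and length (GENCODE M21), and leaving out each library. The fits were tested on simulated data. All 7 members were named in every comparison. Of the other lists, genes past the threshold, or else up to 3 with the largest change, were named, and for each member the 3 genes of highest r. Some genes are not reported here. Members and lists were chosen with earlier results of these data known. Nothing shows which replicates were processed together, and p-values measure the spread between these samples. Limits from a count of 0 are 3 counts per library and cover counting error only. R 4.3.3 and Python 3.11.15 were used.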

Additional observations from a re-analysis of the deposited data

Results flagged for a closer look

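Among 35 groups of 4 to 8 samples (7 members in 5 groups), 4 had 1 sample far from the others by Dixon's test, a test that picks out about 1 group in 20 by chance. Gabra4 was high in vehicle-treated APP replicate 4 (127 CPM) and low in JQ1-treated young replicate 1 (22.9 FPKM). Gabrb1 was high in vehicle-treated APP replicate 2 (26.6 CPM), and without that library the log2 change with JQ1 was 1.01 in place of 0.85. Gabrd was low in vehicle-treated APP replicate 1 (13.5 CPM), the library of that group with the lowest Dsp.

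The JQ1 response differed between APP and young WT mice by the limma interaction test for Gabrb1 (0.91 on the log2 scale, adjusted p = 0.0007), Gabra2 (0.74, adjusted p = 0.0317) and Gabrg1 (0.69, adjusted p = 0.0201). With the GC correction Gabrb1 passed (0.68, limma adjusted p = 0.0278), and Gabra2 (0.40, adjusted p = 0.493) and Gabrg1 (0.17, adjusted p = 0.806) did not. Gabra2 did not pass without APP JQ1 replicate 4 either (limma adjusted p = 0.0593).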

How the results depend on the processing

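Each member had at least 271 counts in every aged library, and the depth of the young libraries is unknown. Of the values recomputed with 1 library left out, 615 kept their direction and side of the threshold, 17 turned sign, 10 lost a call and 2 gained 1. Under the other settings 268 kept both, 22 turned sign, 7 lost and 4 gained. With JQ1 against vehicle in APP mice, 1 member was called (Gabrb1), 2 with DESeq2 (Gabrb1 and Gabrg1), 0 with the GC correction, with and without the library labelled APP JQ1 replicate 4, and 1 to 2 with 1 library left out. In vehicle-treated APP against aged WT mice 0 were called, and 1 (Gabra5) with DESeq2 or the 2 groups alone. In JQ1-treated APP against aged WT mice 1 was called, 0 with the block and GC correction together, 2 (Gabra5 and Gabrb1) with the GC correction without that library (chosen after seeing the data, as was every fit that joins these 2 choices), and 0 to 1 with 1 library left out. In the fit with 2 calls 4.77% of all genes passed, against 2.06% as counted. In the interaction 3 were called, 1 (Gabrb1) with the GC correction with or without that library, and 2 to 4 with 1 left out. The causes were not tested.

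By deviations over all genes, replicate numbers did not pair the samples throughout. Of JQ1 and vehicle APP libraries, 3 of 6 same-numbered pairs had r over 0.1 (mean r 0.12), against 9 of 30 differently numbered pairs (mean r -0.02). These counts were 0 of 4 against 7 of 20 for vehicle APP and aged WT, and 1 of 4 against 10 of 20 for JQ1 APP and aged WT. Young pairs gave 1 of 8 against 0 of 56. Whether same-numbered libraries share a batch cannot be told from these values. Gabrd and Dsp were lowest in replicate 1 of each aged group, and the block cut the SE of Gabrd with JQ1 in APP mice from 0.256 to 0.104 with the GC correction, without a call. With the replicate block, 87 genes were called in place of 184 with JQ1 in APP mice, 35 in place of 436 in vehicle APP against aged WT mice, and 21 in place of 349 in JQ1 APP against aged WT mice. The members called stayed at 1 (Gabrb1, adjusted p = 0.00555), 0 and 1 (Gabrb1, adjusted p = 0.0447). The block changed no member's call in young mice (0).

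Changes near 0 turned sign in some settings. Gabrd with JQ1 in APP mice was 0.059 with the GC correction, 0.048 with GC and length, 0.061 with GC and block, and -0.257 to 0.0262 with 1 library left out. Gabra4 and Gabra5 there were -0.019 and -0.025 with the GC correction without APP JQ1 replicate 4. Gabrb1 in vehicle APP against aged WT mice was -0.0044 with DESeq2, -0.0043 with RLE size factors, -0.0056 with no filter, -0.10 with the block, -0.038 with block and GC, and -0.163 to 0.0931 with 1 library left out. Against aged WT mice with JQ1, Gabra2 was -0.0457 to 0.45 with 1 library left out. Gabrg1 was -0.0409 to 0.37 there, -0.11 with the GC correction, -0.093 with GC and length, -0.078 with block and GC, and -0.20 with the GC correction without APP JQ1 replicate 4. In young mice Gabrg1 was 0.033 with the GC correction, with and without the block, Gabrb1 reached from -0.0581 to 0.00046 and Gabrb2 from -0.0079 to 0.0562 with 1 library left out. In the interaction Gabra4 was -0.026 with the GC correction and -0.085 also without APP JQ1 replicate 4, Gabra5 -0.058 and -0.14 (-0.0538 to 0.16 with 1 library left out), and Gabrd 0.13 and 0.046 (-0.24 to 0.13). Per kilobase of the longest transcript in place of all exons, aged WT levels moved to 30.4 CPM per kilobase for Gabra4, 17.2 for Gabrb2 and 5.08 for Gabrg1.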
